A study of Homo sapiens with 2 samples.

Results

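The genes described here encode 10 enzymes of androgen metabolism, namely CYP17A1, HSD3B1, HSD3B2, AKR1C3, AKR1C1, SRD5A1, SRD5A2, UGT2B15, UGT2B17 and UGT2B28. The measurement was where GATA2, a transcription factor that recognises GATA motifs through its zinc fingers, sat on the genome, as mapped by chromatin immunoprecipitation and sequencing (ChIP-seq). A peak counted as a member if its midpoint lay in 1 of 6 fixed hg19 windows, each reaching about 0.1 Mb beyond the gene bodies. By that rule 44 of the 36797 peaks in the deposited list were members, and 5 of the 6 windows held at least 1. The limits of the windows follow gene position and not any measured value, though the members were chosen with earlier results of these data known.

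The samples form 1 group of 2 replicates of LNCaP, an established androgen-responsive line derived from a prostate cancer metastasis, at passages 32 to 34. The cells grew in 10% serum, and for 3 days before the assay they were kept in 5% charcoal-treated serum, which is poor in steroids. The sample details used here list no androgen treatment. LNCaP is 1 cancer cell line and carries a mutated androgen receptor, which limits it as a model of prostate epithelium. Both replicates share 1 peak list with no value per replicate, no control group was analysed here, and read depth is unknown, so no p-value was computed and no window could be tested across replicates. An empty window may still hold binding below the authors' peak threshold. Every score below is the authors' own value for a peak, with no stated unit, and it serves only to rank peaks within the list, in which it ran from 80.01 to 3100 with a median of 212.

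Androgens are made from adrenal and gonadal precursors in a short chain of steps. CYP17A1 forms dehydroepiandrosterone, HSD3B enzymes turn it into androstenedione, AKR1C3 reduces androstenedione to testosterone, and the SRD5A reductases turn testosterone into dihydrotestosterone, the most potent natural androgen. AKR1C1 reduces dihydrotestosterone to a weak metabolite, and the UGT2B enzymes attach glucuronic acid to androgens so that they can be excreted. In LNCaP cells UGT2B15 and UGT2B17 are known to be expressed and to be lowered by androgen. RNA was not measured here.

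Promoter letters show how differently these genes begin. RefSeq (GRCh38.p14) holds a promoter for 8 of the 10 genes, and UGT2B17 and UGT2B28 are named only. Where the table lists several starts for a gene, its first was used. The 250 bases before it were searched on both strands for GATA-type strings, namely AGATAA or AGATAG as well as TGATAA or TGATAG. No matches overlapped in the genes named here. In all, 5 of the 8 promoters held a match, as did 22.3% of the 35116 promoters in the table. These 5 were HSD3B1, HSD3B2, CYP17A1, AKR1C1 and AKR1C3. The 4 promoters below are shown because they span the range from paired matches to none, in genes whose windows held peaks. Capitals mark the matches, and the coordinates are those of GRCh38.p14, which cannot be set beside the hg19 peak positions given later.
HSD3B1 (chr1:119506953-119507202, plus strand): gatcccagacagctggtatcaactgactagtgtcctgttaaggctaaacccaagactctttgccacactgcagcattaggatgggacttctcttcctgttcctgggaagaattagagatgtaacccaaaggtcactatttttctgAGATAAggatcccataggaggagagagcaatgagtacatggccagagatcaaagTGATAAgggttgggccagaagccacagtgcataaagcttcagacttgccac
CYP17A1 (chr10:102837414-102837663, minus strand): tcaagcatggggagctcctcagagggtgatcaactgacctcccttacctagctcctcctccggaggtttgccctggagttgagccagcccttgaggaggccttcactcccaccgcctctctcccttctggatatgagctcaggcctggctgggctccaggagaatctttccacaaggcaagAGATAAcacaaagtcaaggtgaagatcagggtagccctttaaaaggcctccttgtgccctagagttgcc
SRD5A1 (chr5:6633190-6633439, plus strand): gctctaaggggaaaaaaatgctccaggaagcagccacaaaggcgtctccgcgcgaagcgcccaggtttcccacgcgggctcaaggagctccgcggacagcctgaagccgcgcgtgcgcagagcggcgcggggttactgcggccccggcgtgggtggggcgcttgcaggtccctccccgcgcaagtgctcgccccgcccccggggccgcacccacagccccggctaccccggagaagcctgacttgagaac
UGT2B15 (chr4:68670653-68670902, minus strand): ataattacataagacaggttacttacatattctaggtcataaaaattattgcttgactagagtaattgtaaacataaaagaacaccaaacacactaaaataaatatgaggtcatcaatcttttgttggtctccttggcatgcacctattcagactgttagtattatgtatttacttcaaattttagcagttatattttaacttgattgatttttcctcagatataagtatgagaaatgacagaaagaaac

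HSD3B1 had 2 matches, AGATAA at bases -105 to -100 and TGATAA at -51 to -46, counted back from the start of transcription. Its other listed start, 7 bp away, also gave 2. AKR1C3 had 1 match at the start used and 2 at another start, 45633 bp away. Of all promoters in the table, every start counted, 4.96% held 2 or more. CYP17A1 had 1 match, AGATAA at -69 to -64. SRD5A1 had none in a promoter of 70.8% G and C, and UGT2B15 had none in one of 28.4% G and C, against a median of 58% over the table. SRD5A2, at 66.4% G and C, also had none. A match describes the letters only and was not joined to any peak. Among 12 other genes of steroid synthesis and metabolism looked up in the same way, 9 had a promoter in the table and 6 of those held a match, including AKR1C2, CYP11A1 (which starts steroid synthesis from cholesterol) and SULT2A1 (which sulfates dehydroepiandrosterone).

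GATA2 peaks were dense at the androgen-inactivating UGT2B cluster and missing from the AKR1C window, and the other 4 windows, of 0.21 to 0.31 Mb, held numbers of peaks that are common for their length. The UGT2B window held 33 of the 44 peaks, the SRD5A1 window 4, the HSD3B window 3, the SRD5A2 and CYP17A1 windows 2 each and the AKR1C window 0. The members numbered 17.3 per Mb (exact Poisson 95% interval 12.6 to 23.3, which covers counting error only), and autosomal peaks numbered 13.2 per Mb, a ratio of 1.31 (95% interval 0.96 to 1.77). The ratio was 1.98 (95% interval 1.38 to 2.76) within the inner spans alone. With only the better-scoring 50% of peaks it was 1.54 (95% interval 1.01 to 2.26), so that both these intervals lay above 1. Of the 35 peaks in the inner spans, 29 lay in the UGT2B window. Removing 0.1 Mb from each end shortens the other windows by a larger share, so the UGT2B window weighs more in the ratio of 1.98. Other settings over the 6 windows gave 95% intervals that included 1. The ratio was 1.46 (0.47 to 3.41) with the best-scoring 10% and 1.18 (0.89 to 1.52) with 0.1 Mb more at each end. It was 1.32 (0.96 to 1.78) after merging close peaks, and 1.36 (0.99 to 1.83) with long peak-free stretches kept in the autosomal length. The ratio rested on the UGT2B cluster. Without it the other 5 windows held 11 peaks, or 7.97 per Mb, 0.61 times the autosomal density (95% interval 0.30 to 1.08).

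**Figure D1:**
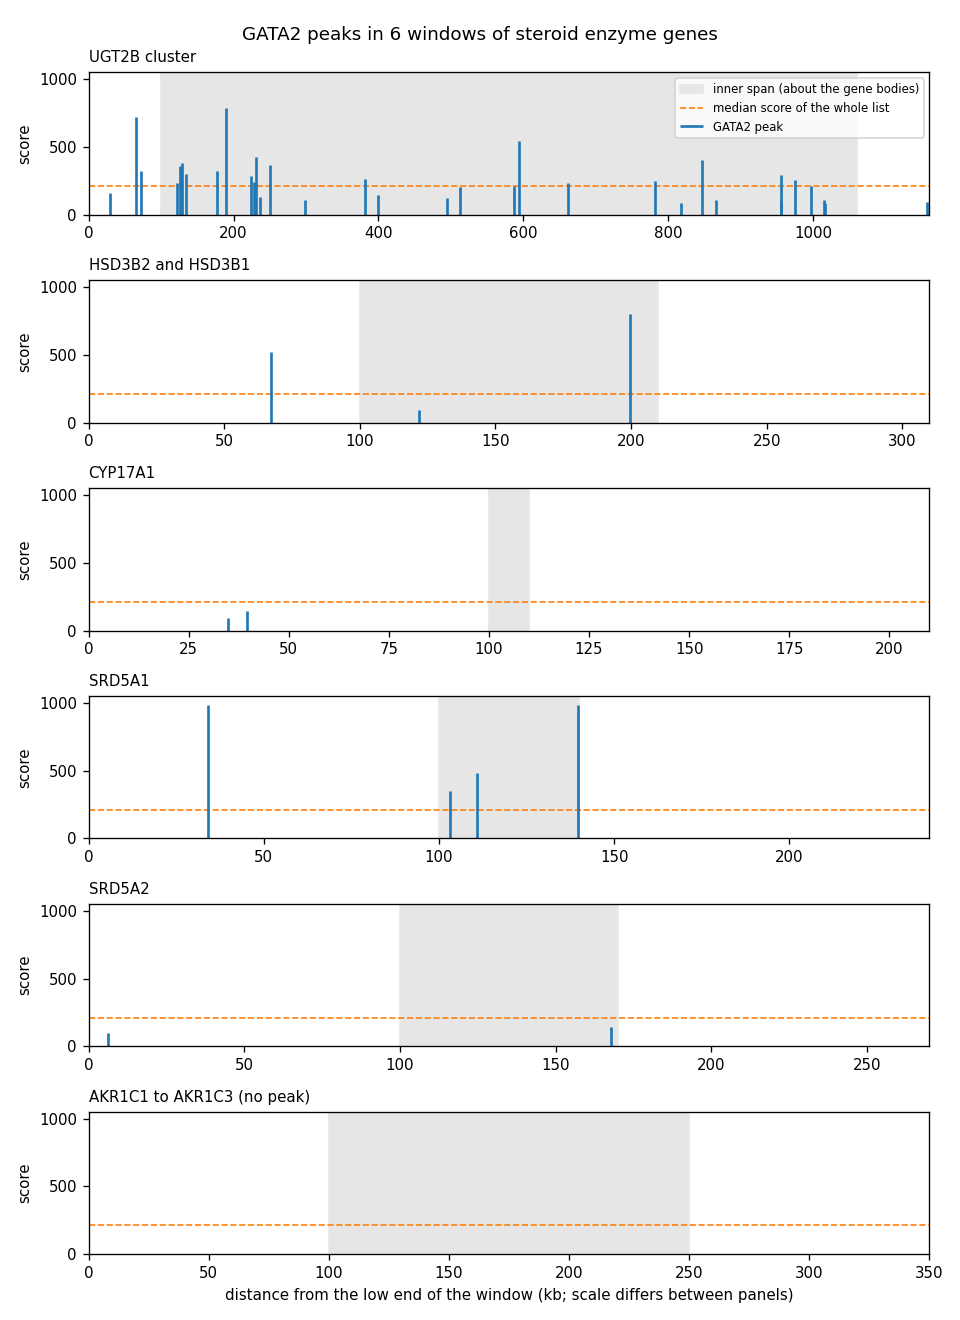
Each panel is 1 window, with the distance from its low end in kb on the horizontal axis and the authors' peak score on the vertical axis. Blue lines are GATA2 peaks, the grey band is the inner span left after removing 0.1 Mb from each end, and the dashed line is the median score of the list. The UGT2B panel holds 33 peaks, 16 of them in the lowest of 3 equal parts, and the AKR1C panel holds 0.

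Peak scores in the windows resembled those of the list. The members had a median score of 246 (exact binomial 95% interval 161 to 322), and the autosomal list had 214. Of the 44 members, 26 scored above the median of the whole list, or 59.1%, against 50% of all peaks, by construction. The upper quartile of the list, scores from 397 upward, took 10 members, or 22.7%, against 25% of all peaks. The best-scoring 10% of the list, from 687 upward, took 5 members, or 11.4%, against 10%. These shares lie near those of the list, and the Wilson 95% interval of each includes it. Such intervals treat the 44 peaks as independent, though 33 of them lie in the UGT2B window, so they may be too narrow.

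The 5 highest-scoring members came from 3 windows. Their scores were 984 and 982 in the SRD5A1 window, 803 in the HSD3B window, and 785 and 719 in the UGT2B window. The SRD5A2 and CYP17A1 windows held only peaks below the list median. No member came near the highest score of the list, 3100, and the best of them ranked 1431st in the list.

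CYP17A1, the hydroxylase and lyase that commits steroids to androgen synthesis, had no peak in its inner span. That span, from 104.59 to 104.60 Mb of chromosome 10, is about the gene body to within the 10 kb to which the windows are rounded. The window held 2 peaks, both low in score and both on its low side. The first, 104524747 to 104524923, measured 177 bp with a score of 94.6. The second, 104529564 to 104529794, measured 231 bp with a score of 146. They lay 4.84 kb apart, and the nearer one was 60.3 kb below the inner span. CYP17A1 is transcribed from the minus strand, so the side without peaks is the one upstream of its start. Of stretches of the same length, 52.9% held 2 peaks or fewer, so the count was ordinary. The nearest peak above the window was stronger, with a score of 630, and lay 23.1 kb beyond its edge.

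The HSD3B window on chromosome 1 held 3 peaks of very unequal score. HSD3B1 is the isoenzyme of peripheral tissues such as placenta and prostate, HSD3B2 is that of adrenal gland and gonads, and RefSeq's order places HSD3B2 at the low end of the pair and HSD3B1 at the high end, with 5 pseudogenes between them. The strongest peak, at 120049599 to 120049973, scored 803, higher than 93.0% of the list, and was 375 bp wide. It lay in the inner span, 10.2 kb from its high end, which is the end where HSD3B1 lies. The second peak of the inner span, at 119971731 to 119971849, lay 21.8 kb from the low end, where HSD3B2 lies. It scored 91.2 and at 119 bp was the narrowest of all 44 members. The third, at 119916928 to 119917343, scored 519 and lay 32.9 kb below the inner span.

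Within the inner span, the peak nearer the HSD3B1 end thus scored far above the peak nearer the HSD3B2 end. This contrast leaves out the peak of score 519, which lay beyond the HSD3B2 end, so it does not rank the genes. No annotation of hg19 was used here, so the distance of these peaks to a start site was not measured. Peaks were not assigned to exons, introns or untranslated regions in any window. Of equally long stretches, 48.4% held 3 peaks or fewer, and 27.4% held at least 2 peaks of the upper quartile, as this one did. The window had 9.68 peaks per Mb (95% interval 2.00 to 28.3), and the 2 Mb beside it had 23.5 per Mb (95% interval 17.3 to 31.3). These intervals overlap.

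No GATA2 peak lay in the window of AKR1C1 to AKR1C3 on chromosome 10. AKR1C3 makes testosterone from androstenedione, while AKR1C1 lowers dihydrotestosterone, and RefSeq places AKR1C2 between them. The window measured 0.35 Mb, and a count of 0 allows up to 8.57 peaks per Mb (3 peaks over the window, an upper 95% bound alone). The exact Poisson interval used for the other counts would reach 10.5 per Mb. Of stretches of the same length, 6.42% held none. The nearest peak below, at 4895313 to 4895588, scored 145 and lay 4.55 kb outside the edge, so a slightly wider window would have had a member. Above, the list was empty for a further 302 kb, up to a peak at 5552281 with a score of 207.

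The interval without peaks around AKR1C1 to AKR1C3 measured 657 kb. Of 35447 intervals between neighbouring autosomal peaks, 0.494% were at least that long, and together such intervals took 5.93% of the usable autosomal length. The empty window thus allows up to 8.57 per Mb, and the 2 Mb beside it gave 18 peaks at a density of 9 (95% interval 5.33 to 14.2), so these ranges overlap. AKR1C genes are close copies of each other. Over the 250 bases before the first start listed for each, AKR1C1 and AKR1C2 were 96.5% identical, and AKR1C1 and AKR1C3 were 72.4% identical. How the authors treated reads that fit more than 1 copy is not given in the sources used here, and its part in the empty window was not tested.

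The windows of SRD5A1 and SRD5A2, the reductases that make dihydrotestosterone, differed in the scores of their peaks. SRD5A1 is the isoenzyme that prevails in prostate cancer cells, and its window on chromosome 5 held 4 peaks, all above the list median. The peak at 6564002 to 6564396 scored 984 and lay 65.8 kb below the inner span. The remaining 3 lay in the inner span, which is about the gene itself. The peak at 6633082 to 6633475 scored 353 and lay 3.28 kb inside the low end of the inner span, the end at which this plus-strand gene starts. The peak at 6640736 to 6641069 scored 482 and lay 10.9 kb inside the same end. The peak at 6669449 to 6669920 scored 982 and lay 0.316 kb inside the high end, where the gene finishes.

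At SRD5A1, then, both ends of the inner span had a peak within the 10 kb to which the window is rounded. The weaker of these was at the end where the gene starts. The number of peaks was ordinary, since 37.5% of equally long stretches held at least 4, but the number of strong ones was less so. The window had 3 peaks of the upper quartile, and 6.79% of equally long stretches had at least 3, a background computed after the scores were seen. The window had 16.7 peaks per Mb (95% interval 4.54 to 42.7), and the 2 Mb beside it had 7.50 per Mb (95% interval 4.20 to 12.4), intervals that overlap.

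SRD5A2 is the isoenzyme of normal prostate and genital tissue. Its window on chromosome 2 held 2 peaks. The peak at 31807610 to 31807812 scored 143, higher than 30.5% of the list, and lay 2.29 kb inside the high end of the inner span, the end at which this minus-strand gene starts. The other, at 31646031 to 31646198, scored 102 and lay 93.9 kb below the inner span, 6.11 kb from the window's edge. All 4 peaks of the SRD5A1 window scored above both peaks of the SRD5A2 window. Other genes in these windows were not looked up, so the peaks were not assigned to either reductase gene. With no value per replicate this difference was not tested. Of equally long stretches, 40.5% held 2 peaks or fewer.

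**Figure D2:**
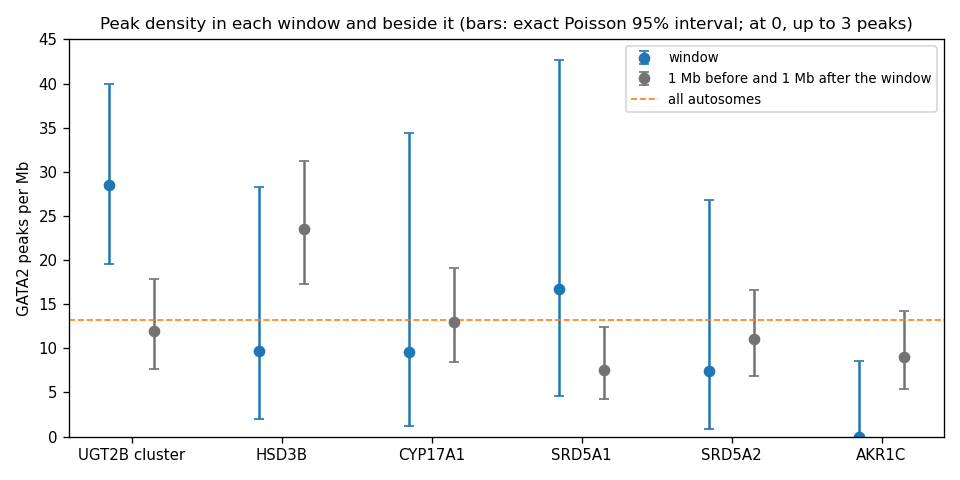
The vertical axis gives GATA2 peaks per Mb and the horizontal axis the 6 windows, with the window in blue and the 1 Mb before plus 1 Mb after it in grey. Bars are exact Poisson 95% intervals for counting error. The bar of the empty AKR1C window instead reaches 8.57, the upper bound of 3 peaks for a count of 0. The dashed line is the autosomal density of 13.2. The UGT2B window at 28.4 has an interval that lies above that of its surroundings at 12, while the other 5 pairs of bars overlap.

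The UGT2B cluster on chromosome 4 stood apart from the other windows by its number of peaks. The window is 1.16 Mb long, and RefSeq's order from UGT2B17 to UGT2B4 holds 8 protein-coding genes, among them UGT2B15, UGT2B10, UGT2A3, UGT2B7, UGT2B11 and UGT2B28, and 25 pseudogenes. Its 33 peaks gave 28.4 per Mb (95% interval 19.6 to 40.0), 2.16 times the autosomal density (95% interval 1.49 to 3.03). Beside it lay 24 peaks in 2 Mb, a density of 12 per Mb (95% interval 7.69 to 17.9). Of equally long autosomal stretches, 1.95% held 33 peaks or more, and their median was 15. The part that multiply placed reads or copy number may have in the count of 33 was not tested.

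**Figure D3:**
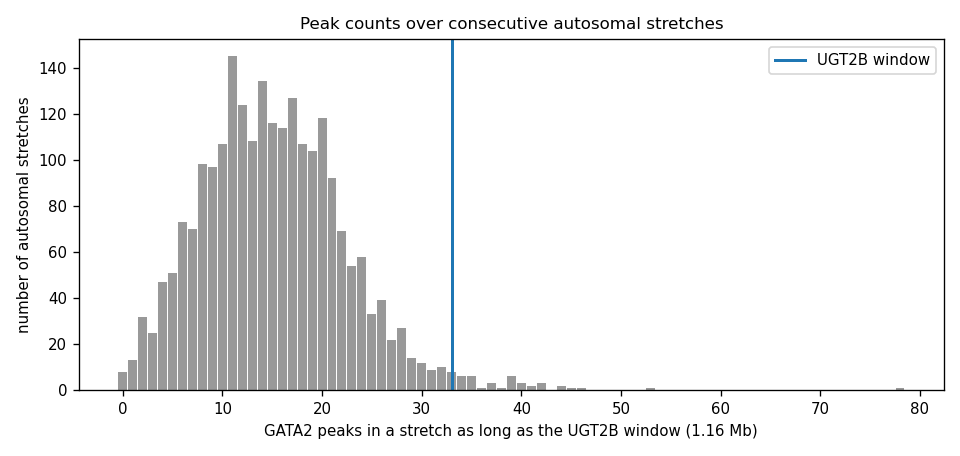
Grey bars count the 2302 consecutive autosomal stretches of 1.16 Mb, on the vertical axis, by the number of GATA2 peaks in each, on the horizontal axis. The blue line marks the UGT2B window at 33 peaks, and 1.95% of the stretches hold as many or more.

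The density came from peaks of middling score. The median score in the cluster was 240 (95% interval 161 to 298), and 20 of 33 peaks scored above the list median, or 60.6%. Only 5 of them, or 15.2%, belonged to the upper quartile of the list, with a Wilson 95% interval of 6.65% to 30.9% that includes the 25% of all peaks. By number of upper-quartile peaks the window was ordinary, since 35.8% of equally long stretches held at least 5.

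The peaks were concentrated at the low end of the cluster, where UGT2B17 and UGT2B15 are the first 2 protein-coding genes. Cut into 3 equal parts of 387 kb, the window held 16, 6 and 11 peaks from low to high coordinate. Median scores of these parts were 310, 207 and 108. In the lowest part 13 of 16 peaks exceeded the list median, in the middle part 2 of 6, and in the highest part 5 of 11. UGT2B28 and UGT2B4 are the last protein-coding genes in RefSeq's order, towards that high end. The cut into 3 was chosen after the values were seen. The intervals of the counts overlap (95% intervals 9.15 to 26.0, 2.20 to 13.1 and 5.49 to 19.7 peaks).

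The 2 strongest peaks of the cluster lay in its lowest part. The peak at 69489406 to 69489848 scored 785 and was 443 bp wide. The peak at 69364668 to 69365283 scored 719 and, at 616 bp, was the widest of all 44 members, and it lay 35.0 kb below the inner span with a companion of score 323 at a distance of 7.29 kb. Next in score came the peak at 69893196 to 69893598, with 542, in the middle part, then that at 69531204 to 69531522, with 428, in the lowest part, and that at 70145700 to 70146131, with 402, in the highest part. The rest of the 8 highest were again in the lowest part. The peak at 69428756 to 69429112 scored 385, that at 69550061 to 69550393 scored 367, and that at 69425715 to 69426069 scored 361. The lowest score of the cluster was 84.6, for the peak at 70117329 to 70117520. Of the 8 highest-scoring peaks, 6 thus lay in the lowest part.

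The longest runs of close peaks in the cluster were a pair of runs of 4, and their spacing was nearly the same. In a run, successive midpoints are no more than 12500 bp apart. The low-coordinate run went from 69422103 to 69434552, with scores of 234, 361, 385 and 298 in order of position. The high-coordinate run went from 69524524 to 69536597, with scores of 283, 240, 428 and 128. In the low run the steps between midpoints were 3.59, 3.04 and 5.32 kb, and in the high run they were 3.68, 3.00 and 5.11 kb. Every peak of the high run lay 102.2 to 102.5 kb above its counterpart in the low run.

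The largest difference between matching steps was 207 bp, less than the width of any of these 8 peaks. The list held 250 runs of exactly 4 peaks, which formed 41 pairs no farther apart than the length of the UGT2B window. The UGT2B pair had the most alike steps of the 41, and the median largest difference over the pairs was 7384 bp. Its own difference set the limit, so its share of 2.44% is the smallest possible and not a background rate. The likeness was noticed first and counted afterwards. UGT2B17 and UGT2B15 are known as close duplicates of each other, and reads from duplicated sequence can be placed on either copy. Without an hg19 annotation the runs were not assigned to these genes, and the part of shared sequence in the repeated spacing was not tested. Scores were not repeated in the same way. The third peak was the highest in both runs, but the fourth scored 298 with a width of 600 bp in the low run and 128 with a width of 245 bp in the high run.

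**Figure D4:**
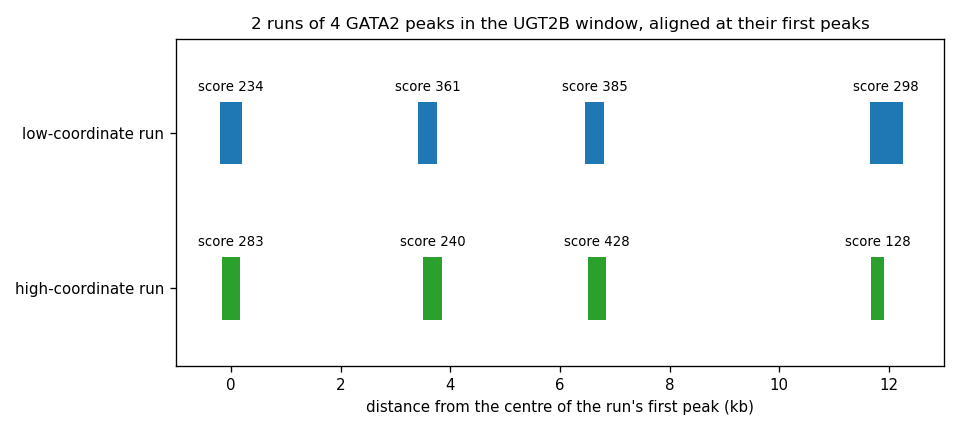
The 2 runs of 4 GATA2 peaks in the UGT2B window are aligned at the centre of their first peaks, with distance in kb on the horizontal axis, bars drawn to the width of each peak and its score above it. Matching steps differ by at most 207 bp, while the fourth peak is 600 bp wide in the low-coordinate run and 245 bp wide in the high-coordinate one.

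Close neighbours were somewhat more common in the windows than in the list, by a margin that the wide interval does not settle. A midpoint within 10 kb was found for 20 of 44 members, or 45.5% (Wilson 95% interval 31.7% to 59.9%), against 33.2% of all peaks, which that interval includes. Both peaks of a close pair are counted, so the 20 are not independent. Without the UGT2B window the share was 36.4%. Of these 20, 16 lay in the UGT2B window, 2 in that of SRD5A1 and 2 in that of CYP17A1. In the highest part of the UGT2B cluster 2 pairs lay very close, at 0.254 and 0.917 kb between midpoints. The closer pair scored 294 and 103 and would merge into 1 peak if peaks under 500 bp apart were joined. The largest distances between neighbouring peaks within the cluster were 140 kb at its high end and 120 kb and 94.5 kb further in.

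Of the 33 UGT2B peaks, 6 were wider than 90% of the peaks in the list whose score lay within 10% of their own. This is 18.2% (Wilson 95% interval 8.61% to 34.4%), against 9.94% of all peaks, which the interval includes. Over all 44 members the share was 13.6%. The low-coordinate end held 5 of the 6, with widths of 431, 616, 456, 402 and 600 bp, and the sixth, of 436 bp, began at 69960594. The last peak of the low run, of 600 bp, was wider than 98.7% of peaks of like score, whose median width was 327 bp. In the other direction, the peak at 70254825 to 70255019 measured 195 bp at a score of 294 and was wider than only 1.97% of its like. Median widths were 326 bp over the 44 members and 295 bp over all autosomal peaks.

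**Figure D5:**
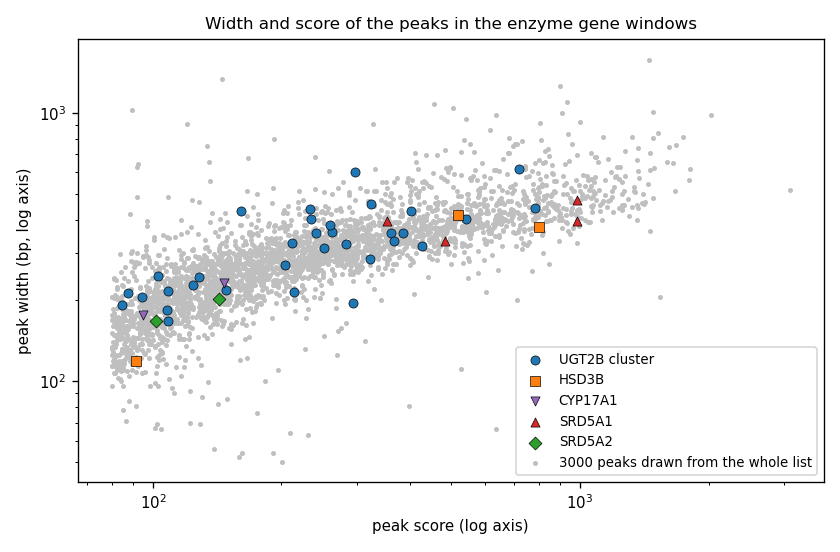
Peak score is on the horizontal axis and peak width in bp on the vertical axis, both log axes, with coloured symbols for the 44 members by window and grey points for 3000 peaks drawn from the whole list. Most members lie within the grey cloud, and several UGT2B peaks, such as those of 600 and 616 bp, lie along its upper edge.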

How the data were processed

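GATA2 ChIP-seq was done in 2 LNCaP replicates. Libraries were amplified for 16 cycles and selected at about 225 bp, per the labels' protocols. Per the submitters' processing notes, the reads were mapped on hg19 by Bowtie. The peak names in the deposited list show MACS as the peak caller. Not given in the sources used here are tool versions, any control library, the treatment of duplicate or multiply placed reads and any pooling of replicates. The deposited score of each peak is the authors' own and its scale is not stated. Depth is unknown.

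Peak starts, counted from 0 in the file, were raised by 1. Windows were compared with consecutive stretches of equal length on the autosomes, from first to last peak less peak-free stretches over 2.5 Mb, as a description and not as a test. Counts have exact Poisson intervals, shares Wilson intervals and medians order-statistic intervals, all at 95%. The count of 0 was given an upper bound of 3 peaks instead. All of these treat peaks as independent of each other, which peaks of a cluster may not be. The count of peaks in a window, the mean count per stretch and the finding of runs were tested on simulated data. The intervals, width shares and promoter matches were not. Python 3.11.15, numpy 2.4.6, scipy 1.17.1, matplotlib 3.10.9 and Biopython 1.88 were used. Promoter letters and gene order came from RefSeq tables of GRCh38.p14. The members, lists and tests were chosen with earlier results of these data known. All peaks were described in windows of up to 12 peaks, and in the UGT2B window the 8 highest-scoring, the widest, the lowest-scoring and the longest runs. Other peaks named there were chosen after their values were seen. Alternatives were score thresholds, merging, overlap and window extent.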

Additional observations from a re-analysis of the deposited data

How the results depend on the processing

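With the better-scoring 50% of peaks, the 44 members became 26, or 10.2 per Mb, with a median score of 357 and 100% above the list median by construction. With the best-scoring 10% they became 5, or 1.97 per Mb, with a median score of 803, 100% above the list median and 0% with a neighbour within 10 kb. Within the inner spans alone the density was 26.1 per Mb, 1.98 times that of the autosomes (95% interval 1.38 to 2.76). Of the 35 peaks there, 29 lay in the UGT2B window, which weighs more in this setting than in the main one. Without the UGT2B window, a setting chosen after seeing the data, 11 peaks remained at 7.97 per Mb, 0.61 times the autosomal density, with a median score of 353. Of 43 such values over the windows, 28 lay inside the main value's 95% interval (for the count, no more than 1.5 times away), and 22 of 36 counts of single windows were no more than 1.5 times away too. Part of this tally was fixed. The AKR1C count of 0 cannot change where peaks are only dropped or merged, and any overlap gave every main value again. Merging of close peaks, any overlap in place of the midpoint, and 0.1 Mb more at each end moved none of the values over all windows beyond those limits. Single windows did move with 0.1 Mb more at each end. Counts went from 0 to 2 for AKR1C, 4 to 7 for SRD5A1, 3 to 7 for HSD3B and 2 to 5 for CYP17A1. Those of UGT2B (33 to 34) and SRD5A2 (2 to 3) stayed within the limit. In the main setting, counts in all windows but that of UGT2B are 4 or fewer, so their densities are loosely fixed. Alternatives that need an hg19 genome or annotation were not run. No replicate could be left out. No paired analysis was possible because the only peak list is shared by both replicates of a single group.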
